A study of Mus musculus with 10 samples.

Results

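Interleukin-11 (gene Il11) and 9 other genes of interleukin-6 (IL-6) family signalling were followed across RNA-seq libraries of a mouse mammary epithelial cell line. The 10 genes were named as a list, Il11, Lif, Il6, Il6st, Osmr, Lifr, Il6ra, Il11ra1, Stat3 and Socs3, and were 10 of the 24454 genes of the deposited counts table. Il11 was chosen by its CPM in these same libraries, where it was far lower with Irf1 siRNA under TGFbeta. Its values with TGFbeta are therefore given as a description with no test.

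The cells were subclone 9, which is 1 clone, of NMuMG, a line from normal mouse mammary gland in which TGFbeta sets off epithelial-mesenchymal transition (EMT). All cells were transfected with 20 nM siRNA, directed at Irf1 (siIrf1) or a control (siCtr), and were harvested on day 3. The series title asks what the transcription factor Irf1 does for epithelial identity and for EMT. The siIrf1 TGFbeta group (3 libraries, replicates 1, 2 and 3) and the siCtr TGFbeta group (2 libraries, replicates 2 and 3) received recombinant human TGFbeta1 at 2 ng/ml for the last 2 d. The siIrf1 0 d group (3 libraries, replicates 1, 2 and 3) and the siCtr 0 d group (2 libraries, replicates 1 and 3) received none. Whether replicates are separate cultures is not in the labels, so the p-values cover the spread between these libraries and no more.

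IL-6 family cytokines are secreted proteins that share the signalling receptor chain gp130, encoded by Il6st. IL-6 and IL-11 first bind receptors of their own (Il6ra, Il11ra1), which recruit gp130, whereas leukaemia inhibitory factor (Lif) and oncostatin M (Osm) signal through gp130 joined to the receptor chains Lifr or Osmr. The receptors activate JAK kinases, which phosphorylate the transcription factor STAT3, and STAT3 in turn switches on Socs3, a feedback inhibitor that binds gp130. Il11 is known as a gene induced by TGFbeta in fibroblasts and several other cell types.

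The promoter of Il11 is shown because the gene was the most strongly changed of the 10. Il11 lies on the minus strand of chromosome 7 (chr7:4772373-4782907, GRCm38.p6) and has a pair of annotated starts in RefSeq. Gene counts do not tell which start the reads came from. The 250 bases before the start at the lower coordinate are given 5′ to 3′, with a match to the AP-1 motif in capitals, and overlap no exon of the GENCODE annotation. The 250 bases before the other start (chr7:4782858-4783107) held none of the motifs searched.

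Il11, chr7:4778142-4778391, minus strand: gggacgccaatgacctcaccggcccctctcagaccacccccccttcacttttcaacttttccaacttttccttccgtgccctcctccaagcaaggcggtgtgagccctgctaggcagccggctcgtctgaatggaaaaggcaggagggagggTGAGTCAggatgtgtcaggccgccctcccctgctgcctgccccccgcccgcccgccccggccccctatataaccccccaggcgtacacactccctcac

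All 10 genes had a promoter entry in RefSeq (GRCm38.p6). The 250 bases before each start were searched on both strands for AP-1 (TGANTCA), STAT (TTCNNNGAA), IRF (GAAA, then NN, then GAAA), SMAD (GTCTAGAC) and E-box (CACCTG) letters, none of which was found to overlap another in these genes. An AP-1 match was present before at least 1 start of 3 genes, Il11 (at 1 of its 2 starts), Il6 and Lif, and in 6.75% of the 32851 promoters of the RefSeq table. The matches here are counted per gene and the shares per promoter, so the counts and the shares are not on the same footing. A STAT match was present for Socs3 alone (7.02% of all promoters). E-box matches were found for Il6ra, Lif and Lifr (17.2%), and IRF (2.98%) or SMAD (0.167%) matches for none of the 10. The matches are given with their neighbouring bases to let them be compared, with the motif in capitals. They describe letters in these windows and are not shown to be sites of binding.

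Il11, AP-1, chr7:4778222-4778250, minus strand, 98 bases before the start: aggagggagggTGAGTCAggatgtgtcag
Lif, AP-1, chr11:4257329-4257357, plus strand, 228 bases before the start: ccagtcagctgTGACTCAggccatagtgg
Il6, AP-1, chr5:30012864-30012882, plus strand, 249 bases before the start: cTGAGTCActtttaaagaa
Socs3, STAT, chr11:117969502-117969530, minus strand, 154 bases before the start: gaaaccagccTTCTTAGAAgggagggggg

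The libraries held 27547649 to 67301646 counts. Levels are given as CPM, counts scaled to a common library size with edgeR. Irf1 itself was at 36.5, 46.2 and 41.0 CPM in siIrf1 TGFbeta, 106 and 112 CPM in siCtr TGFbeta, 56.4, 64.1 and 57.7 CPM in siIrf1 0 d, and 148 and 129 CPM in siCtr 0 d. It was lower in all siIrf1 libraries (log2 fold change -1.40 with and -1.22 without TGFbeta). Of the epithelial markers, Cdh1 and keratins 7, 8 and 18 were at 144 CPM or more in all libraries, while Epcam had 1 count in all and Cldn7 none. The 6 epithelial markers summed to 6361 to 10720 CPM in siIrf1 TGFbeta and 13420 to 14350 in siCtr TGFbeta. Without TGFbeta their sums were 6357 to 7009 in siIrf1 0 d and 6870 to 8318 in siCtr 0 d. Cdh1 was lowest in siCtr TGFbeta (339 and 363 CPM), where Krt7 was highest (1050 and 953 CPM). The 6 fibroblast and pericyte markers summed to 27.1 to 31.4 CPM in siIrf1 TGFbeta, 34.4 to 38.9 in siCtr TGFbeta, 0.837 to 0.950 in siIrf1 0 d and 0.424 to 0.589 in siCtr 0 d, with Col1a2 and Lum at 0. The 6 immune markers summed to 2.11 to 3.24 CPM in siIrf1 TGFbeta, 6.36 to 7.09 in siCtr TGFbeta, 2.23 to 2.90 in siIrf1 0 d and 1.91 to 3.26 in siCtr 0 d, with Cd3e at 0. The 5 endothelial markers summed to 1.78 to 2.17 CPM in siIrf1 TGFbeta, 6.00 to 6.64 in siCtr TGFbeta, 0.498 to 0.534 in siIrf1 0 d and 0.606 to 0.628 in siCtr 0 d. All these sums, the epithelial one included, thus stood highest in siCtr TGFbeta, but not every marker did. Cd68 (6.49 and 6.10 CPM) made up most of the immune sum there, and Cdh5 (5.81 and 5.03 CPM) most of the endothelial one. Ptprc was at 0.0744 and 0 CPM in siCtr TGFbeta and highest in siIrf1 0 d (0.659, 1.02 and 0.659 CPM). Dcn was at 0 in both siCtr TGFbeta libraries and at 0.827, 0.332 and 1.08 CPM in siIrf1 TGFbeta. The excess of genes of low over genes of high GC content, as a log2 value per library, was 0.659, -0.390 and 0.772 in siIrf1 TGFbeta, -0.461 and -0.464 in siCtr TGFbeta, 0.742, 0.191 and 0.931 in siIrf1 0 d, and -1.37 and -0.610 in siCtr 0 d. Replicate 2 of siIrf1 TGFbeta and replicate 1 of siCtr 0 d stood apart from their groups in it. With this pair left out, the value was positive in every siIrf1 library and negative in every siCtr library. GC and siRNA then went together, so values without the pair do not take the GC difference out. What part these differences have in the results was not tested, except where a value with the GC trend removed is given.

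Il11 stood at 15.3, 10.3 and 12.7 CPM in siIrf1 TGFbeta, 165 and 214 CPM in siCtr TGFbeta, 0.345, 0.158 and 0.317 CPM in siIrf1 0 d, and 0.393 and 0.364 CPM in siCtr 0 d. Both siCtr TGFbeta libraries were more than 10 times above every siIrf1 TGFbeta library, and all libraries with TGFbeta were far above those without. With replicates of the same number set side by side, siCtr TGFbeta was 16.05 times siIrf1 TGFbeta in replicate 2 and 16.9 times in replicate 3.

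As group means, Il11 was at 12.8 ± 2.52 CPM in siIrf1 TGFbeta and 190 ± 34.8 CPM in siCtr TGFbeta (SD, n = 3 and 2), a fitted log2 difference of -3.89 (14.9-fold lower). The same means were 0.273 ± 0.101 CPM in siIrf1 0 d and 0.378 ± 0.0204 CPM in siCtr 0 d (SD, n = 3 and 2). The rise with TGFbeta was 47.2-fold in siIrf1 cells (log2 5.56) and 498-fold in siCtr cells (log2 8.96). These folds rest on 30 counts over the siIrf1 0 d libraries and 22 over the siCtr 0 d libraries. Among genes that averaged 5 CPM or more in the group with the higher level, Il11 ranked 5 of 10236 by fall with Irf1 siRNA under TGFbeta and 13 of 10176 by rise with TGFbeta in siCtr cells. Il11 was chosen for that fall, and both ranks use the siCtr TGFbeta libraries, so they restate the choice.

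Without TGFbeta, where Il11 was not used to choose the list, Irf1 siRNA gave a log2 difference of -0.49 ± 0.40 (SE; edgeR quasi-likelihood, adjusted p = 0.364). All siIrf1 0 d libraries lay below both siCtr 0 d libraries. Of all genes tested, 62.3% had no overlap between these groups, in either direction. With 7 to 12 counts per library, a difference of this size was not detectable at this depth. The order of the groups was thus siCtr TGFbeta, siIrf1 TGFbeta, then the 0 d groups, which did not differ beyond their spread. In RNA of whole cultures, fewer cells making a transcript and less of it per cell cannot be told apart, here and for all genes below.

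**Figure D1:**
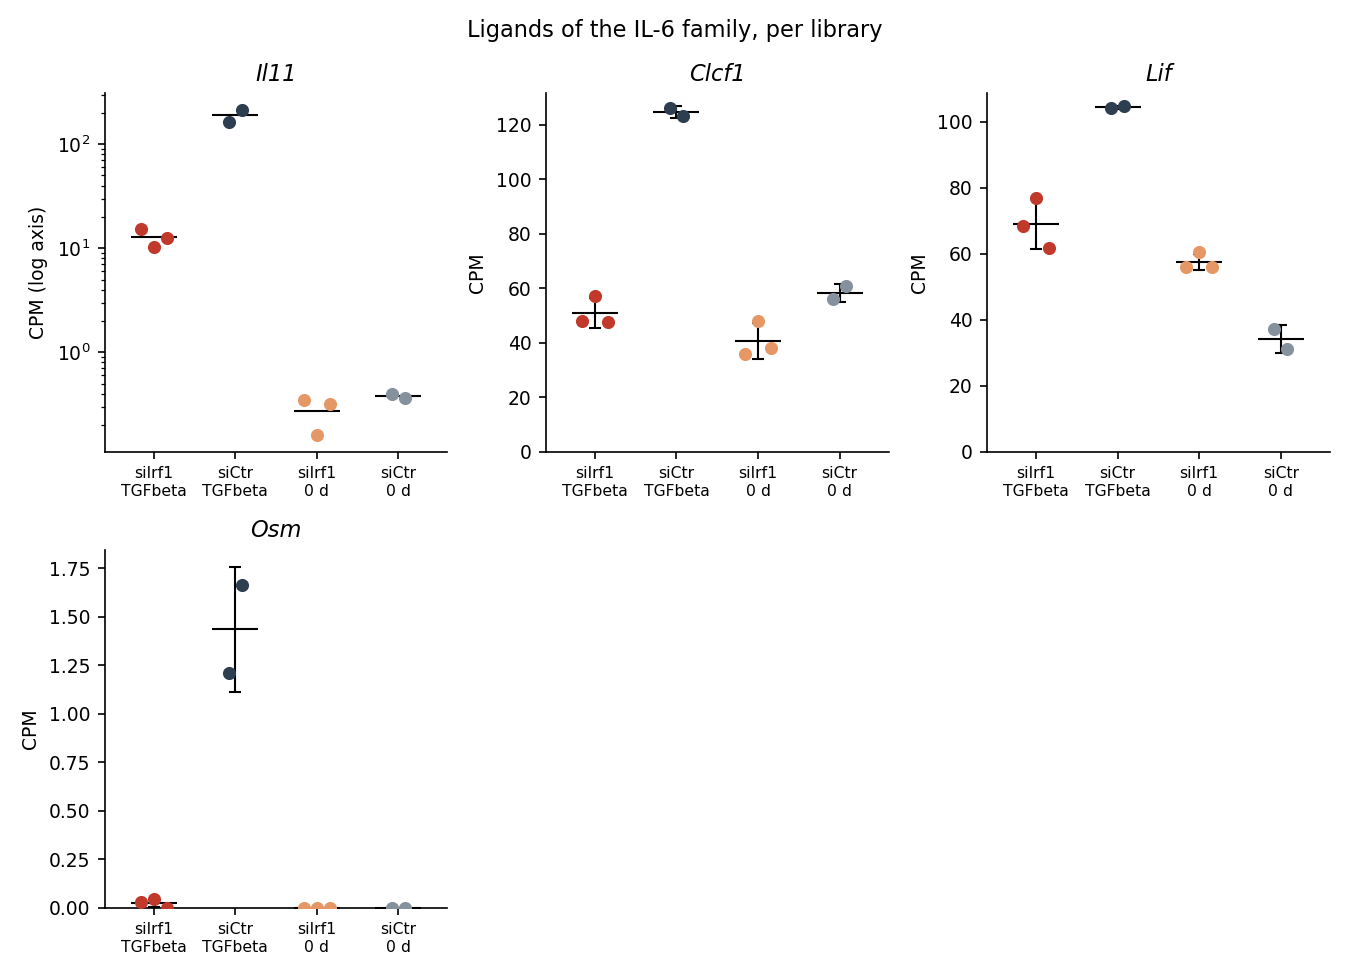
CPM of 4 cytokine genes in each library (points) of the 4 groups, with the group mean (long bar) and, on linear axes, the SD (short bars); Il11 is on a log axis. Il11 sits between 10.3 and 15.3 CPM in siIrf1 TGFbeta and between 165 and 214 CPM in siCtr TGFbeta, and below 0.40 CPM in all libraries without TGFbeta.

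Lif, a cytokine known for keeping mouse embryonic stem cells undifferentiated, responded to Irf1 siRNA in opposite directions with and without TGFbeta. It was at 68.5, 76.9 and 61.9 CPM in siIrf1 TGFbeta and 104 and 105 CPM in siCtr TGFbeta. It was at 56.1, 60.4 and 55.9 CPM in siIrf1 0 d and 37.3 and 31.2 CPM in siCtr 0 d. In both conditions the siIrf1 and siCtr libraries did not overlap, and the siIrf1 libraries were the lower ones with TGFbeta and the higher ones without it. The same lack of overlap, in either direction, held for 46.3% of all genes tested with TGFbeta and 62.3% without.

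With TGFbeta, Lif fell by 0.60 ± 0.15 on the log2 scale with Irf1 siRNA (adjusted p = 0.0236). It was 1 of 6 genes of the list called in this comparison, Il11 left out, beside 18.0% of all genes tested (8.28% lower and 9.72% higher). The call was lost when the compared groups were fitted alone (adjusted p = 0.0606), without replicate 1 (0.0793) or 3 (0.0555) of siIrf1 TGFbeta, and without replicate 2 (0.110) or 3 (0.118) of siCtr TGFbeta. Without TGFbeta, Lif rose by 0.75 ± 0.16 (adjusted p = 0.00731), and this call stood under all 19 alternatives. The difference between both siRNA effects, the interaction, was -1.34 ± 0.22 (adjusted p = 0.00862), 1 of 6 genes of the list beside 4.12% of all genes (1.32% in this direction). Without replicate 2 of siCtr TGFbeta the interaction was -1.44 with an adjusted p of 0.0522.

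TGFbeta raised Lif 3.05-fold in siCtr cells (log2 1.61 ± 0.17, adjusted p = 8.19e-05). In siIrf1 cells its log2 difference with TGFbeta was 0.27 ± 0.14 (adjusted p = 0.228). The siCtr TGFbeta group was thus highest and the siCtr 0 d group lowest, and the siIrf1 TGFbeta and siIrf1 0 d groups between them did not differ past the threshold.

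Il6, which encodes the cytokine the family is named after, was close to undetected. It had 3 counts in replicate 2 of siIrf1 TGFbeta, 4 in replicate 2 of siCtr TGFbeta and 0 in the other 8 libraries. A count of 0 allows up to 3 counts, which is 0.0434 to 0.118 CPM depending on the library, for counting error only. Il6 did not pass the filter on low counts, and no difference was detectable at this depth.

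Of the other ligands of the family, 8 are reported, of which 4 passed the filter, Osm among them only through the siCtr TGFbeta libraries. Of the other 3, Clcf1, a cytokine that signals through gp130 and Lifr, fell with Irf1 siRNA under TGFbeta, beside 8.28% of all genes lower and 9.72% higher. It was also the 1 that rose with TGFbeta in siCtr cells, beside 16.1% of all genes higher and 16.3% lower. In siIrf1 cells none of these 3 passed the threshold for TGFbeta, beside 21.3% of all genes in either direction.

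Clcf1 was at 48.0, 57.3 and 47.7 CPM in siIrf1 TGFbeta, 126 and 123 CPM in siCtr TGFbeta, 35.9, 48.0 and 38.0 CPM in siIrf1 0 d, and 55.9 and 60.7 CPM in siCtr 0 d. Non-coding genes such as Gm45928 overlap it. The siCtr TGFbeta libraries were the highest, with no overlap with any other group, while siIrf1 TGFbeta overlapped both 0 d groups. For siCtr TGFbeta, 46.3% of all genes tested had no overlap with siIrf1 TGFbeta and 71.9% none with siCtr 0 d, in either direction. Clcf1 fell by 1.29 ± 0.17 on the log2 scale with Irf1 siRNA under TGFbeta (adjusted p = 9.06e-04) and rose by 1.10 ± 0.19 with TGFbeta in siCtr cells (adjusted p = 0.0016). In siIrf1 cells its log2 difference with TGFbeta was 0.33 (adjusted p = 0.176). Without TGFbeta the log2 difference with Irf1 siRNA was -0.52 ± 0.17 (adjusted p = 0.0416), a call that 12 of 19 alternatives lost, among them removal of the GC trend (-0.09, adjusted p = 0.631). The interaction missed the threshold (-0.77 ± 0.24, adjusted p = 0.125).

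Osm, oncostatin M, had 1, 3 and 0 counts in siIrf1 TGFbeta, 115 counts over the siCtr TGFbeta libraries (1.21 and 1.67 CPM), and 0 in all 5 libraries without TGFbeta. Only the siCtr TGFbeta libraries thus held more than 3 counts each. With TGFbeta it was 46.8 times higher in siCtr than in siIrf1 cells (95% counting interval 17.8 to 175). In siCtr cells it was at least 26.8-fold higher with TGFbeta than without, against a floor of 3 counts over the group. No test is given for Osm, since it passed the filter only through the group where it is high. Osm lies 16.5 kb from Lif on chromosome 11.

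Of the remaining ligands, Cntf, ciliary neurotrophic factor, was at 4.14, 3.89 and 4.72 CPM in siIrf1 0 d and 1.02 and 1.82 CPM in siCtr 0 d. It rose by 1.57 ± 0.40 with Irf1 siRNA without TGFbeta (adjusted p = 0.0157), a call lost without replicate 3 of siIrf1 0 d (adjusted p = 0.0505) or replicate 1 of siCtr 0 d (0.113). Reads of Cntf may be shared with Gm44505, a non-coding gene whose span covers it, since the counting may not have used strand. Ctf1, cardiotrophin-1, lay between 1.51 and 2.89 CPM in all libraries and was called in no comparison. Ctf2 and Il31 had no count, Il27 had 2 counts in all, and Ebi3 did not pass the filter.

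**Figure D2:**
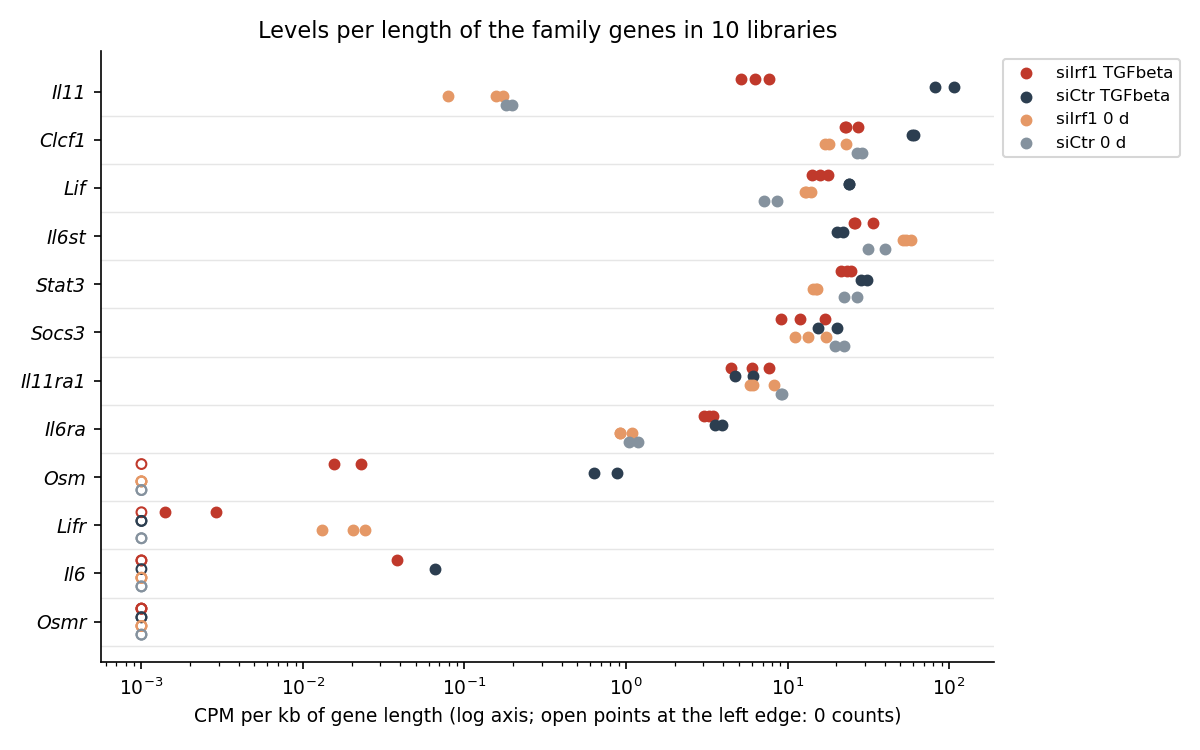
CPM per kb of gene length (log axis) of the 10 listed genes and of Clcf1 and Osm in each library, coloured by group; open points at the left edge are libraries with 0 counts. In siCtr TGFbeta Il11 is above all the other genes shown, and in both 0 d groups it is below Il6ra.

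Set on a scale per kb of gene length, which allows levels to be compared between genes, the leading gene of the 10 listed, Clcf1 and Osm was Il11 in siCtr TGFbeta and Il6st in the other 3 groups. In siIrf1 TGFbeta the means were 28.6 CPM per kb for Il6st, 24.4 for Clcf1, 23.2 for Stat3, 15.9 for Lif and 6.36 for Il11. In siCtr TGFbeta the means were 94.4 CPM per kb for Il11, 59.7 for Clcf1, 29.9 for Stat3, 24.1 for Lif and 21.2 for Il6st. Il11 was the highest of the ligands reported in siCtr TGFbeta and stood below Clcf1 and Lif in siIrf1 TGFbeta. In siIrf1 0 d and siCtr 0 d, Il11 was at 0.136 and 0.188 CPM per kb, against 13.3 and 7.89 for Lif and 54.8 and 35.7 for Il6st.

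Il6st, the shared receptor chain gp130, was at 143, 141 and 184 CPM in siIrf1 TGFbeta, 111 and 120 CPM in siCtr TGFbeta, 297, 284 and 315 CPM in siIrf1 0 d, and 170 and 218 CPM in siCtr 0 d. It was highest in siIrf1 0 d, and siIrf1 libraries lay above siCtr libraries in both conditions without overlap. Among all genes tested, 46.3% had no overlap between siIrf1 and siCtr with TGFbeta and 62.3% without, in either direction.

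TGFbeta lowered Il6st in siIrf1 cells, by 0.94 ± 0.15 on the log2 scale (adjusted p = 0.00143), and in siCtr cells, by 0.75 ± 0.19 (adjusted p = 0.0116). The call in siCtr cells was lost without replicate 2 (-0.61, adjusted p = 0.164) or 3 (-0.74, 0.0829) of siCtr TGFbeta or replicate 3 of siCtr 0 d (-0.44, 0.146). Irf1 siRNA without TGFbeta raised Il6st by 0.62 ± 0.17 (adjusted p = 0.0218). This call was lost with the GC trend removed (0.31, adjusted p = 0.0676), without replicate 1 (0.0584) or 3 (0.0744) of siIrf1 0 d, and without replicate 1 of siCtr 0 d (0.44, 0.213). With TGFbeta the log2 difference with Irf1 siRNA was 0.43 (adjusted p = 0.111), and the interaction was -0.19 (adjusted p = 0.710).

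Il6ra, the receptor that binds IL-6, was the receptor gene that rose with TGFbeta. It was at 11.7, 11 and 10.3 CPM in siIrf1 TGFbeta, 13.2 and 12.1 CPM in siCtr TGFbeta, 3.11, 3.66 and 3.11 CPM in siIrf1 0 d, and 3.53 and 4.00 CPM in siCtr 0 d. Libraries with and without TGFbeta were far apart, while those of siIrf1 and siCtr lay close together within each condition. Of all genes tested, 35.8% had no overlap between TGFbeta and 0 d in siIrf1 cells and 71.9% in siCtr cells. The rise was 3.33-fold in siIrf1 cells (log2 1.74 ± 0.17, adjusted p = 6.23e-05) and 3.35-fold in siCtr cells (log2 1.74 ± 0.21, adjusted p = 1.85e-04). Irf1 siRNA gave log2 differences of -0.20 ± 0.19 with and -0.19 ± 0.20 without TGFbeta (adjusted p = 0.521 and 0.466).

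Il11ra1, the receptor that binds IL-11, was called in no comparison. It was at 11.8, 15.1 and 8.79 CPM in siIrf1 TGFbeta, 11.9 and 9.33 CPM in siCtr TGFbeta, 11.5, 16.2 and 12 CPM in siIrf1 0 d, and 18.0 and 17.9 CPM in siCtr 0 d. The siCtr 0 d libraries were the highest, and the other groups overlapped. Its log2 difference with TGFbeta in siCtr cells was -0.75 ± 0.29 (adjusted p = 0.0705). That difference passed the threshold with DESeq2 (adjusted p = 0.0453) and with the GC trend removed (-0.56, 0.0321).

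Il11ra2, a near copy of Il11ra1 that lies 885.8 kb away on chromosome 4, averaged 3.79 ± 0.930 CPM in siIrf1 TGFbeta, 3.29 ± 0.152 in siCtr TGFbeta, 4.49 ± 0.523 in siIrf1 0 d and 6.81 ± 1.14 in siCtr 0 d (SD, n = 3, 2, 3 and 2). It fell by 1.05 ± 0.28 with TGFbeta in siCtr cells (adjusted p = 0.016), a call lost without replicate 2 (0.147) or 3 (0.0869) of siCtr TGFbeta or replicate 1 of siCtr 0 d (0.119). Counting may split or lose reads between these copies, and the chemokine genes Ccl27a and Ccl27b overlap them, so the values of both are uncertain.

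The receptor chains that would serve Lif and Osm were hardly detected. Osmr had 0 counts in all 10 libraries. Lifr had 0, 1 and 1 counts in siIrf1 TGFbeta, 0 in both siCtr TGFbeta libraries, 8, 6 and 8 in siIrf1 0 d, and 0 in both siCtr 0 d libraries. Its counts were thus nearly all in siIrf1 cells without TGFbeta.

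Lifr did not pass the filter on low counts. Tested among 18046 genes with no such filter, it was called for Irf1 siRNA without TGFbeta (adjusted p = 0.0205) and for TGFbeta in siIrf1 cells (adjusted p = 0.0158). It was at least 3.76-fold higher in siIrf1 0 d than in siCtr 0 d, against a floor of 3 counts over the group. It was 13.2 times higher in siIrf1 0 d than in siIrf1 TGFbeta (95% counting interval 3.23 to 115). Its highest level was 0.251 CPM.

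Osmr and Lifr lie 215.6 kb apart on chromosome 15. The receptors Cntfr, Il27ra and Il31ra had 1, 9 and 2 counts over all libraries. Adam10 and Adam17, proteases that shed the IL-6 receptor from the cell surface, were called in no comparison by edgeR as reported. DESeq2 called 1 of the 2 higher with TGFbeta in siCtr cells, beside 5154 of all genes in either direction. With the GC trend removed 1 was called lower with Irf1 siRNA under TGFbeta, and 1 higher with TGFbeta in siIrf1 and in siCtr cells. Beside these, 3543, 4335 and 5742 of all genes were called in either direction. Without the pair of libraries that stood apart in GC, the GC difference and the siRNA went together, so no calls are counted for these proteases.

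**Figure D3:**
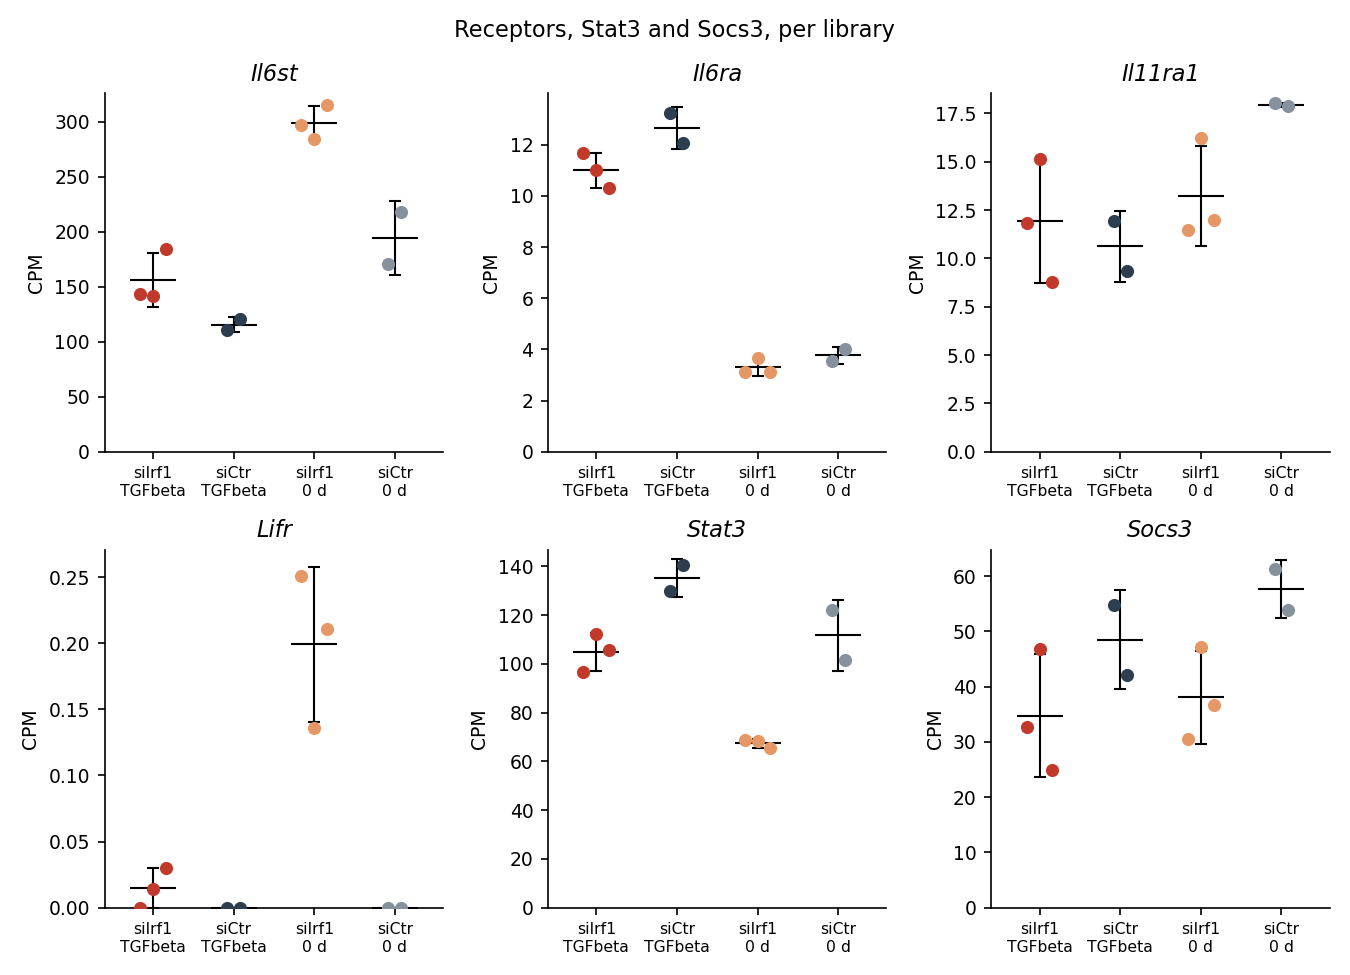
CPM of 4 receptor genes, Stat3 and Socs3 in each library (points) of the 4 groups, with the mean (long bar) and SD (short bars); axes start at 0 and differ between panels. Il6ra lies between 10.3 and 13.2 CPM with TGFbeta and between 3.11 and 4.00 CPM without, while Il6st is lower with TGFbeta in both siRNA groups.

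Stat3, the main transcription factor downstream of gp130, was at 96.6, 112 and 105 CPM in siIrf1 TGFbeta, 130 and 141 CPM in siCtr TGFbeta, 68.8, 68.2 and 65.4 CPM in siIrf1 0 d, and 122 and 101 CPM in siCtr 0 d. The siIrf1 libraries lay below the siCtr libraries in both conditions without overlap, beside 46.3% (with TGFbeta) and 62.3% (without) of all genes in either direction. It fell by 0.73 ± 0.14 with Irf1 siRNA without TGFbeta (adjusted p = 0.00496), which without replicate 1 of siCtr 0 d was -0.60 with an adjusted p of 0.0632. With TGFbeta the log2 difference was -0.37 ± 0.14 (adjusted p = 0.106; DESeq2 adjusted p = 0.0277). TGFbeta raised Stat3 in siIrf1 cells by 0.64 ± 0.13 (adjusted p = 0.00509). In siCtr cells the log2 difference was 0.28 ± 0.16 (adjusted p = 0.201), and the interaction was 0.36 ± 0.20 (adjusted p = 0.383).

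Socs3, the feedback inhibitor, was at 32.6, 46.8 and 24.9 CPM in siIrf1 TGFbeta, 54.8 and 42.1 CPM in siCtr TGFbeta, 30.5, 47.1 and 36.6 CPM in siIrf1 0 d, and 61.3 and 53.9 CPM in siCtr 0 d. Of the groups compared, all overlapped except that all siIrf1 0 d libraries lay below both siCtr 0 d libraries. Between these groups 62.3% of all genes tested had no overlap, in either direction. It passed the threshold in none of the 4 comparisons, with log2 differences of -0.48 and -0.60 for Irf1 siRNA with and without TGFbeta (adjusted p = 0.279 and 0.121). Without the pair of libraries that stood apart in GC, a setting in which GC and siRNA went together, its difference with TGFbeta was -0.83. With the replicate number as a block its difference without TGFbeta was -0.79 (adjusted p = 0.016). With the GC trend removed, its difference with TGFbeta in siIrf1 cells was -0.44 (adjusted p = 0.0225).

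Over the list, 3 of the 7 genes tested passed the threshold for Irf1 siRNA without TGFbeta, with Lif and Il6st up and Stat3 down, beside 31.8% of all genes (16.3% higher and 15.5% lower). With Il11 left out, 3 of 6 passed for TGFbeta in siIrf1 cells (Il6ra and Stat3 up, Il6st down) beside 21.3% of all genes (11.6% higher and 9.71% lower). For TGFbeta in siCtr cells it was also 3 of 6 (Il6ra and Lif up, Il6st down) beside 32.5% (16.1% higher and 16.3% lower). The comparisons share libraries with each other, and the tested genes are too few for these shares to be a result about the list.

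**Figure D4:**
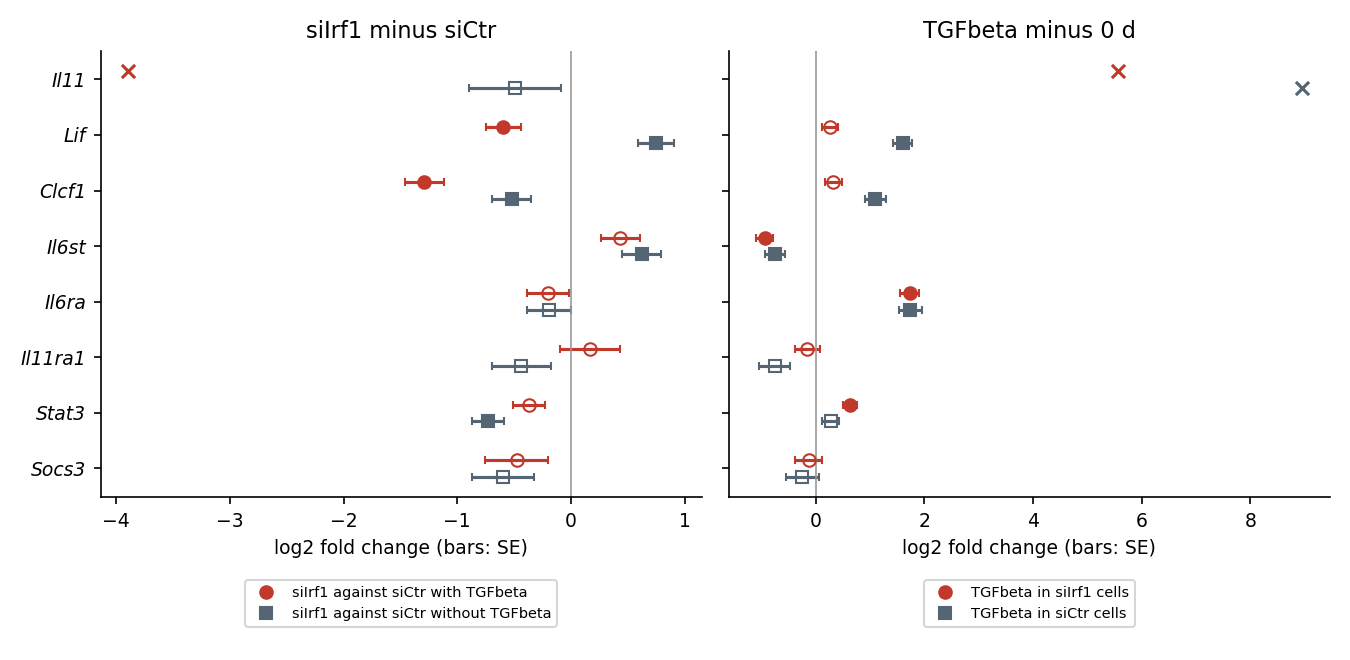
Log2 fold changes of 8 family genes with their SE, for Irf1 siRNA (left, siIrf1 minus siCtr) and for TGFbeta (right, TGFbeta minus 0 d); filled points passed an adjusted p of 0.05, open points did not, and crosses are Il11 where no test is given. Lif lies left of 0 with TGFbeta (-0.60) and right of 0 without (0.75), and Il6ra lies at 1.74 for TGFbeta with either siRNA.

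Of 10 JAK kinases and other transducers, all of which were tested, none passed the threshold for Irf1 siRNA with TGFbeta, beside 18.0% of all genes. With the GC trend removed 1 rose in this comparison, beside 3543 of all genes called in either direction. Calls without the pair of libraries that stood apart in GC are not counted for this list, since GC and siRNA then went together. Without TGFbeta 2 fell, beside 15.5% of all genes, namely Jak3, a kinase best known from lymphocytes (-0.98, adjusted p = 0.0207), and the adaptor Shc1 (-0.76, adjusted p = 0.0133). The Jak3 call was lost with the GC trend removed (-0.54, adjusted p = 0.0694), and without replicate 3 of siIrf1 0 d (0.0807) or replicate 1 (0.0702) or 3 (0.0886) of siCtr 0 d. The Shc1 call was lost without replicate 1 (0.0523) or 3 (0.0547) of siIrf1 0 d or replicate 1 of siCtr 0 d (0.113). Under TGFbeta Jak3 rose in siIrf1 cells by 1.12 ± 0.24 (adjusted p = 0.00724), and all 19 alternatives kept this call.

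Jak2, the kinase that binds many cytokine receptors, was at 734, 303 and 691 CPM in siIrf1 TGFbeta, 765 and 476 CPM in siCtr TGFbeta, 291, 297 and 338 CPM in siIrf1 0 d, and 69.7 and 224 CPM in siCtr 0 d. The siCtr TGFbeta libraries were above both siCtr 0 d libraries, and the groups were widely spread. Its rise with TGFbeta in siCtr cells (2.08 ± 0.54, adjusted p = 0.0152) was not called with the compared groups alone (0.0626) or without replicate 2 of siCtr TGFbeta (0.0869).

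Of 7 negative regulators, none passed the threshold for Irf1 siRNA with TGFbeta, beside 18.0% of all genes. Without the pair of libraries that stood apart in GC, Ptpn2 was at 0.79 and Cish at -0.66 in this comparison. In that setting the GC difference and the siRNA went together, and siCtr 0 d was left with replicate 3 alone. Cish, a relative of Socs3 that is induced by STAT5, was at 32.8, 38.9 and 28.4 CPM in siIrf1 TGFbeta, 46.1 and 46.2 CPM in siCtr TGFbeta, 11.99, 16.9 and 12.3 CPM in siIrf1 0 d, and 14.4 and 16.1 CPM in siCtr 0 d. It was higher in every library with TGFbeta, by 1.28 ± 0.19 in siIrf1 cells (adjusted p = 8.09e-04) and 1.60 ± 0.23 in siCtr cells (adjusted p = 5.53e-04). Socs2 rose with TGFbeta in siCtr cells (1.15, adjusted p = 0.0238), a call lost without replicate 3 of siCtr TGFbeta (0.101) or replicate 1 of siCtr 0 d (0.115). Pias3, which binds STAT3, fell with Irf1 siRNA without TGFbeta (-0.77, adjusted p = 0.00623), with an adjusted p of 0.0541 without replicate 1 of siCtr 0 d. The phosphatase gene Ptpn2 rose in that comparison (1.40, adjusted p = 0.00557) and with TGFbeta in siCtr cells (0.85, adjusted p = 0.0491), but both values turned negative with the GC trend removed (-0.25 and -0.14, adjusted p = 0.277 and 0.577).

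A list of 22 genes known as STAT3 targets, of which 20 were tested, moved in both directions in the 4 comparisons of groups. With Irf1 siRNA under TGFbeta 3 rose, 5 fell and 12 did not pass, with a median log2 difference of 0.37 beside 0.05 over all genes, of which 9.72% were called higher and 8.28% lower. In this comparison DESeq2 and the replicate block each gave 6 up and 7 down, beside 3223 and 2230 of all genes in either direction. Without TGFbeta 3 rose and 7 fell (median -0.12, all genes -0.03), beside 16.3% of all genes higher and 15.5% lower. With TGFbeta 5 rose and 6 fell in siIrf1 cells (all genes 11.6% and 9.71%), and 8 rose and 7 fell in siCtr cells (all genes 16.1% and 16.3%). The falls with TGFbeta include Saa3 and Hp, which had few counts with TGFbeta. With the GC trend removed the counts for Irf1 siRNA were 5 up and 5 down with TGFbeta, and 7 up and 5 down without it. Beside these, 3543 and 4685 of all genes were called in either direction. Several of these genes also answer to NF-kB, AP-1 or other factors.

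Timp1, an inhibitor of matrix proteases, was at 42.3, 43.5 and 32.0 CPM in siIrf1 TGFbeta, 88.9 and 85.8 CPM in siCtr TGFbeta, 22.4, 20.7 and 17.1 CPM in siIrf1 0 d, and 33.6 and 23.9 CPM in siCtr 0 d. It was highest in siCtr TGFbeta, clear of all other groups. It fell by 1.15 ± 0.21 with Irf1 siRNA under TGFbeta (adjusted p = 0.00465), the smallest adjusted p of the list in that comparison, and rose with TGFbeta by 0.97 in siIrf1 and 1.60 in siCtr cells (adjusted p = 0.0044 and 5.67e-04). All 19 alternatives kept these 3 calls. Myc fell in the same comparison (-0.80 ± 0.18, adjusted p = 0.0136), a call lost without replicate 2 (0.0833) or 3 (0.0642) of siCtr TGFbeta.

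Fos, a subunit of the AP-1 transcription factor, was at 9.36, 8.21 and 6.56 CPM in siIrf1 TGFbeta, 5.02 and 6.26 CPM in siCtr TGFbeta, 5.56, 5.04 and 4.38 CPM in siIrf1 0 d, and 1.57 and 1.21 CPM in siCtr 0 d. The siCtr 0 d libraries were the lowest, clear of all other groups. Without TGFbeta it rose by 1.85 ± 0.27 with Irf1 siRNA (adjusted p = 0.00136), and all 19 alternatives kept this call. With TGFbeta the log2 difference with Irf1 siRNA was 0.51 ± 0.24 (adjusted p = 0.173), and the interaction was -1.33 ± 0.35 (adjusted p = 0.0655; DESeq2 0.00613). Fos rose with TGFbeta in siCtr cells by 2.02 ± 0.28 (adjusted p = 4.06e-04). Its rise in siIrf1 cells (0.69 ± 0.21, adjusted p = 0.0417) was lost under 9 of 19 alternatives.

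Lcn2, the iron-binding secreted protein lipocalin-2, was at 2.66, 3.45 and 2.80 CPM in siIrf1 TGFbeta, 1.62 and 1.40 CPM in siCtr TGFbeta, 9.45, 7.42 and 8.15 CPM in siIrf1 0 d, and 17.9 and 16.2 CPM in siCtr 0 d. The siIrf1 libraries were the higher ones with TGFbeta and the lower ones without it, which is the reverse of Lif. It rose with Irf1 siRNA under TGFbeta by 0.97 ± 0.23 (adjusted p = 0.015) and fell without TGFbeta by 1.03 ± 0.20 (adjusted p = 0.00548). The first of these calls was lost with the compared groups alone (0.0581) and without replicate 2 (0.114) or 3 (0.168) of siCtr TGFbeta. The interaction was 2.00 ± 0.31 (adjusted p = 0.00619), with adjusted p of 0.0643 and 0.0662 without replicate 2 or 3 of siCtr TGFbeta.

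C3 and Hp, which encode acute phase proteins, fell with TGFbeta. C3, complement component 3, was at 42.8, 34.2 and 40.8 CPM in siIrf1 TGFbeta, 56.3 and 61.4 CPM in siCtr TGFbeta, 95.3, 86.2 and 76.6 CPM in siIrf1 0 d, and 383 and 272 CPM in siCtr 0 d. It fell with TGFbeta by 1.13 ± 0.17 in siIrf1 and 2.48 ± 0.21 in siCtr cells (adjusted p = 7.7e-04 and 1.72e-05), and with Irf1 siRNA without TGFbeta by 1.93 ± 0.18 (adjusted p = 2.35e-04). The interaction was 1.34 ± 0.26 (adjusted p = 0.0192), a call lost without replicate 2 (0.141) or 3 (0.0865) of siCtr TGFbeta, replicate 3 of siIrf1 0 d (0.0623) or replicate 1 of siCtr 0 d (0.0867). Hp, haptoglobin, was at most 7.28 CPM. It had 37 counts over siIrf1 TGFbeta, 5 over siCtr TGFbeta, 616 over siIrf1 0 d and 196 over siCtr 0 d. Its log2 changes with TGFbeta were -4.28 in siIrf1 cells and -5.68 in siCtr cells. They rest on few counts with TGFbeta, and no test is given for them. Saa3, serum amyloid A3, had 1, 1 and 0 counts in siIrf1 TGFbeta, 3 and 2 in siCtr TGFbeta, 12, 17 and 7 in siIrf1 0 d, and 48 and 43 in siCtr 0 d. Saa3 passed the filter only through libraries without TGFbeta, so its own test is not given. Saa3 and Hp are among the genes counted above as fallen with TGFbeta. Saa3 is also among those fallen with Irf1 siRNA without TGFbeta. Those counts thus rest in part on genes for which no test is given. Pim1, a kinase gene, rose with TGFbeta in siIrf1 (1.32) and siCtr cells (1.85, adjusted p = 3.5e-04 and 1.28e-04).

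**Figure D5:**
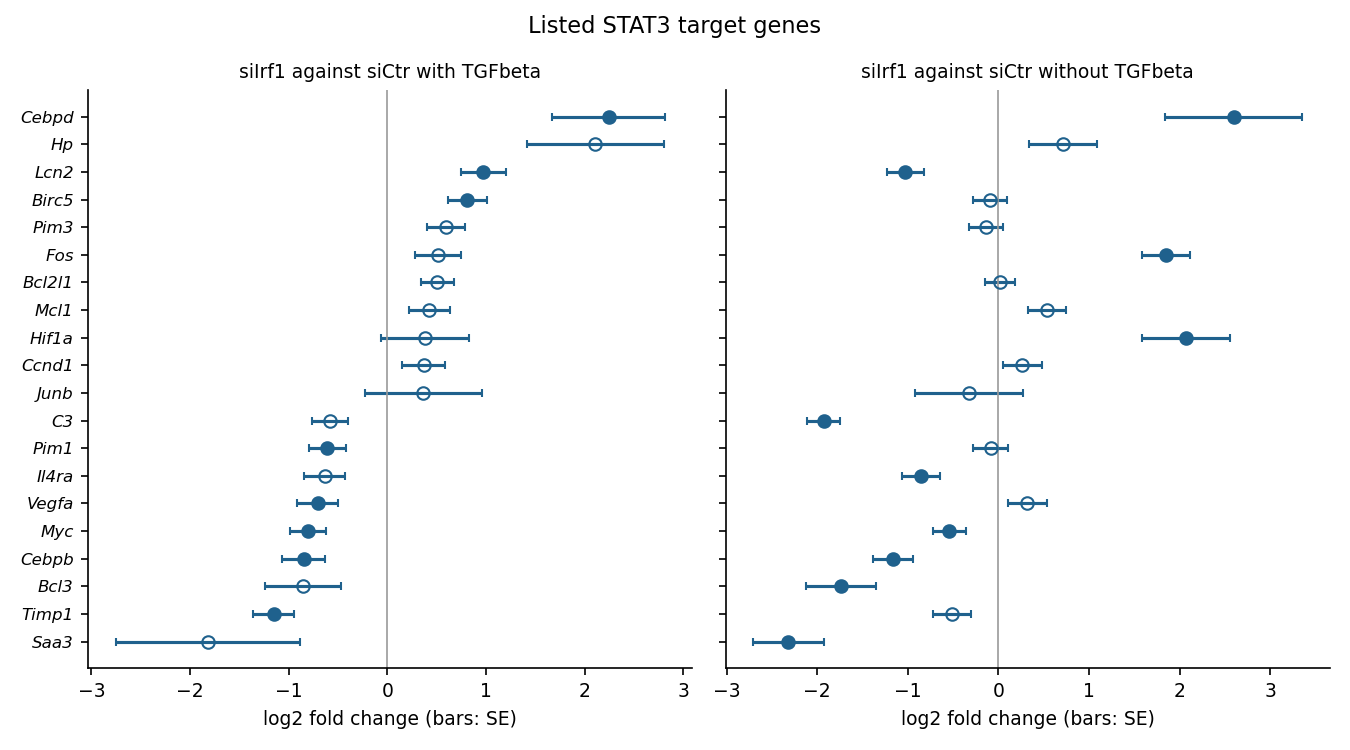
Log2 fold changes with SE of the 20 tested STAT3 target genes for Irf1 siRNA with TGFbeta (left) and without (right), ordered by the left panel; filled points passed an adjusted p of 0.05. Genes lie on both sides of 0 in both panels, with Timp1 at -1.15 and Lcn2 at 0.97 in the left one.

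The genes whose log2 CPM followed that of Il11 most closely over the 10 libraries, among 10068 that averaged 5 CPM or more, were Chrna1 (Pearson r = 0.990), Heatr5a (0.990), Ccbe1 (0.989), Capg (0.988) and Pxdn (0.988). In all, 358 genes had an r over 0.9. The libraries fall into groups, so this measure mainly ranks how alike the group levels are, and no test is given since Il11 was chosen for its pattern. Chrna1, a subunit of the muscle acetylcholine receptor, was at 2.72, 1.39 and 1.72 CPM in siIrf1 TGFbeta, 46.2 and 57.4 CPM in siCtr TGFbeta, and at most 0.0628 CPM without TGFbeta. Ccbe1, a secreted protein known from lymph vessel growth, was at 22.6, 10.1 and 26.8 CPM in siIrf1 TGFbeta, 102 and 88.6 CPM in siCtr TGFbeta, and at most 1.46 CPM without TGFbeta.

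Capg, which caps actin filaments, was at 21.0, 24.4 and 14.1 CPM in siIrf1 TGFbeta, 84.3 and 74.2 CPM in siCtr TGFbeta, and at most 2.87 CPM without it. Heatr5a and Pxdn, a matrix peroxidase that crosslinks collagen IV, were expressed in all groups and were also highest in siCtr TGFbeta. Within the family, the r with Il11 over the 10 libraries was 0.942 for Il6ra, 0.845 for Osm, 0.818 for Lif and -0.883 for Il6st.

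The genes next to Il11 stood at other levels. On the side of lower coordinates, Fam71e2 (1010 bases away) had 5 counts over all libraries and Cox6b2 had 10. On the other side, Tmem238 was at 5.58, 8.40 and 4.48 CPM in siIrf1 TGFbeta, 13.1 and 10.6 CPM in siCtr TGFbeta, 8.38, 9.18 and 6.33 CPM in siIrf1 0 d, and 12.2 and 10.9 CPM in siCtr 0 d. Its log2 difference with Irf1 siRNA under TGFbeta was -0.94 ± 0.28 (adjusted p = 0.0425), which 8 of 19 alternatives put above the threshold, and with TGFbeta in siCtr cells it was 0.04 (adjusted p = 0.936). Rpl28 was at no more than 0.726 CPM, and genes with many close copies are low in this table, so its value is uncertain. Tmem190, which overlaps the end of Il11 at higher coordinates, had at most 8 counts in a library.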

How the data were processed

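Gene expression was measured in 10 mouse RNA-seq libraries made with a stranded kit from total RNA. The authors deposited a table of read counts per gene, with a gene length for each gene. Reads were aligned with STAR to mm10 (GRCm38), per the submitters' processing notes. For the STAR version, the counting tool and whether strand was used, the answer is not given in the sources used here, so overlapping genes and close copies may share or lose reads. Of 24454 genes, 24374 were named from RefSeq (GRCm38.p6), 7 from GENCODE and 73 were left unnamed. Promoter sequences are those of RefSeq for GRCm38.p6. The depth of a library was 27547649 to 67301646 counts.

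Counts were tested in R 4.3.3 with edgeR 4.0.16 (TMM scaling, filterByExpr, robust quasi-likelihood F test). The fit held all 10 libraries, a term per group, 13135 genes and 6 residual degrees of freedom. Benjamini-Hochberg adjustment ran over all genes tested in a comparison, with a threshold of 0.05. SE is the log2 change over the root of F. CPM used the scaled library sizes, and CPM per kb the deposited length. Floors of 3 counts and 95% intervals cover counting error only. The script was tested on simulated data.

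The 10 genes and the other lists were chosen with earlier results of these data known. Genes named are the 10 and Irf1, all genes of the ligand and receptor lists, up to 3 genes of any other list called in a comparison with the smallest adjusted p, the 5 genes closest to Il11 over libraries, and the nearest 2 genes on each side of it. Tmem190, Ebi3, Adam10 and Adam17, and the genes that overlap a named gene, are named beside these. Some genes of the lists are not reported here, and list counts leave them out.

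Alternatives were RLE size factors, no filter, a filter of 2 CPM in 3 libraries, DESeq2 1.42.0, a fit of only the compared groups, a block for the replicate number, a trend with length and GC content removed (GC known for 95% of genes tested), this with the block, and leaving out each library in turn. Leaving out replicate 2 of siIrf1 TGFbeta with replicate 1 of siCtr 0 d was chosen after seeing the data. It left siCtr 0 d with replicate 3 alone, and GC content then differed between all siIrf1 and all siCtr libraries.

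As a pairing check, deviations from the group mean of libraries with the same number correlated at -0.393 to 0.448 over 12 pairs. Of these, 8 were over 0.1. Between siIrf1 TGFbeta and siIrf1 0 d all were (0.136, 0.448 and 0.302). So were those between siIrf1 0 d and siCtr 0 d (0.124 and 0.333) and between siCtr TGFbeta and siIrf1 0 d (0.221 and 0.105). The reported fit held no term for the replicate number, so its p-values use no pairing, and the block was run only as an alternative. The labels themselves do not state a pairing.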

Additional observations from a re-analysis of the deposited data

Results flagged for a closer look

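The effect of Irf1 siRNA differed with and without TGFbeta, by the test of the difference itself (interaction in the edgeR fit), for Lif, of the list of 10, and for Lcn2 and C3, of the STAT3 target genes. For Lif the interaction was -1.34 on the log2 scale, with a lower level in siIrf1 than in siCtr cells with TGFbeta and a higher one without. For Lcn2 it was 2.00, with the opposite directions. For C3 it was 1.34. Its level was lower in siIrf1 cells in both conditions, by 1.93 without TGFbeta and by 0.59 with it. The difference with TGFbeta did not pass the threshold in the edgeR fit as reported, but did with DESeq2 (adjusted p = 0.019). The interaction calls for Lif, Lcn2 and C3 each failed without replicate 2 of siCtr TGFbeta (adjusted p = 0.0522, 0.0643 and 0.141). Of the other genes named above, the epithelial markers Cdh1 (1.01, adjusted p = 0.0262) and Krt7 (-1.91, adjusted p = 0.0148) passed as well. Chrna1, Capg, Pxdn, Heatr5a and Ccbe1 were chosen for a pattern like that of Il11, which favours such a difference. No test is given for them.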

How the results depend on the processing

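The direction of every called difference of the 10 genes held under the 19 alternatives (18 for the interaction, for which a fit of the compared groups alone was not run), and the fall of Il11 with Irf1 siRNA under TGFbeta ranged from -4.14 to -3.75 on the log2 scale. Calls moved more. With TGFbeta, Irf1 siRNA called 1 listed gene as reported, 2 with DESeq2, 0 with the compared groups alone, 3 without the pair of libraries that stood apart in GC, and 0 to 1 with a library left out. Over all genes it called 2365, 4903 without that pair, and 762 to 2989 with 1 library left out. Without TGFbeta it called 3 listed genes, 1 to 3 with a library left out, and 1693 to 5191 of all genes (4175 as reported). TGFbeta called 2799 genes in siIrf1 cells, 1963 to 3311 with a library left out, 4335 with the GC trend removed, 4295 with the block added to that and 4835 without the pair, and in siCtr cells 4267, or 2294 to 5164 with a library left out, with 2 to 4 listed genes. The interaction called 541 genes, 1171 with DESeq2, 1234 with the GC trend removed, 900 with the block added to that, and 123 to 1607 with a library left out, with 0 to 1 listed genes. The cause of these shifts was not tested, beyond the fewer libraries where some were left out.

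With the replicate number as a block, Irf1 siRNA without TGFbeta called 5 listed genes in place of 3, adding Socs3 (-0.79) and Il11ra1 (-0.61, adjusted p = 0.0369). The block called Il11ra1 for TGFbeta in siCtr cells (-0.97, adjusted p = 0.0132), and for TGFbeta in siIrf1 cells it changed no call of a listed gene.

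Sign changes came with removal of the GC trend. Ptpn2 was at -0.25 for Irf1 siRNA without TGFbeta and -0.14 for TGFbeta in siCtr cells, and at -0.31 and -0.19 with the block added. Pim1 was at 0.35 and, with the block, 0.38 for Irf1 siRNA without TGFbeta, against -0.08 as reported. Genes under about 10 counts per library, such as Il6, Lifr and Il11 without TGFbeta, are limited by depth.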
